A study of Mus musculus with 6 samples.

Results

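The Kcnj2 window is the 30 kb of mouse chromosome 11 that hold the potassium channel gene Kcnj2 and its flanking sequence, at chr11:110910001-110940000 in mm9. It was set by position, as 3 of the 587 bins of 10 kb in the contact maps, with earlier results of these data known. It was read as a virtual viewpoint: every contact with 1 end in the window and the other at least 2 bins away was counted. There were 1750 possible bin pairs. The study applied capture Hi-C, which counts ligated pairs of DNA ends that lay close together in the nucleus after enrichment of a chosen region, to mouse limb buds at E12.5. Each of 6 genotypes is represented by 1 library. WT is the unaltered control, deltaBor lacks the boundary between the Kcnj and Sox9 domains, Dup-S, Dup-L and Dup-C are duplications of increasing extent, and Dup-LdeltaBor carries the Dup-L duplication without the boundary. The zygosity of the alleles, the number of embryos behind a library and the orientation of the duplicated copies are, in the sources used here, not given.

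Kcnj2 encodes the inward-rectifier potassium channel Kir2.1, which helps to set the resting membrane potential, and mutations of the human gene cause Andersen-Tawil syndrome, in which the digits and face can be malformed. Chromatin is folded into topologically associating domains, within which promoters and enhancers meet more often than across the boundaries between them, and Kcnj2 lies in the domain next to that of Sox9, the transcription factor that drives cartilage formation. As published, the duplication of Dup-C takes in Kcnj2 and Kcnj16, that of Dup-L stops short of Kcnj2, neither includes Sox9, and Kcnj2 is misexpressed in the limbs of Dup-C mice; duplications that reach KCNJ2 underlie Cooks syndrome in humans. The comparisons below ask with which chromatin the Kcnj2 window was in contact in each genotype.

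The Kcnj2 promoter is shown because it is the regulatory sequence at the centre of the viewpoint. The stretch before the gene start, taken from RefSeq on GRCm38.p6 (a later build than the maps' mm9), is chr11:111065914-111066163 on the + strand, 5′ to 3′. Capitals mark the matches to the motifs searched on both strands.

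Kcnj2 promoter: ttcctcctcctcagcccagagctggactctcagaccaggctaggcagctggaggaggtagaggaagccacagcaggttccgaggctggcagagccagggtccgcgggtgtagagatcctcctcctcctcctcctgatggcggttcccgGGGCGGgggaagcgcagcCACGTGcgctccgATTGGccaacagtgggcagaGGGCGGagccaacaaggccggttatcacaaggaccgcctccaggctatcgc

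The 250 bases held 2 GC boxes (GGGCGG), a motif present in 32.7% of 32851 mouse promoters of the same length. There was 1 E-box (CACGTG, in 6.02% of promoters) and, on the minus strand and so printed as its reverse complement, 1 CCAAT box (CCAAT, in 33.8%). No match to a TATA box (TATAAA, in 12.4% of promoters) lay in this window. No 2 of the matches overlapped. These matches describe letters only, since the maps resolve 10 kb and cannot place a contact at any of them. Among the genes Map2k6, Kcnj16, Kcnj2, Gm11677 and Sox9, which were looked up by name in the RefSeq table, Kcnj2 stands between Kcnj16 and Gm11677. Kcnj16 codes for a related potassium channel, and Sox9 follows Gm11677. Other genes between them were not looked for. No gene other than Kcnj2 was placed on the mm9 maps.

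The regions below were set on the maps themselves. In WT, the domain that holds the window ran from 110200001 to 111380000 (1180 kb), followed by the 2 boundary bins, 111380001 to 111400000. They include the bin called as altered in deltaBor, 111390001 to 111400000. Both boundary bins together held 52 same-bin contacts in deltaBor against 3978 in WT, 0.0114 times the WT level, so the loss was not confined to the called bin. The window ended 440 kb before the boundary bins. The gained segments were 111750001 to 112170000 in Dup-S, 110960001 to 112520000 in Dup-L and Dup-LdeltaBor, and 110770001 to 112520000 in Dup-C. The Dup-C segment thus began 140 kb before the window and took it in, while the Dup-L segment began 20 kb after it. The stretch from 111400001 to 112520000 (1120 kb), between the boundary and the end shared by the Dup-L and Dup-C segments, is called the Sox9-side stretch here. It was duplicated whole in Dup-L, Dup-C and Dup-LdeltaBor and in part in Dup-S. The rest of the Sox9-side domain, 112520001 to 112650000, was not duplicated in any genotype.

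Libraries held 4144258 (Dup-C) to 8965219 (Dup-LdeltaBor) contacts in all. The Kcnj2 window had 64014 contacts in WT, 47961 in Dup-S, 64289 in Dup-L, 58586 in deltaBor, 63019 in Dup-LdeltaBor and 59818 in Dup-C, with 580 to 583 of the 584 other bins. That was 0.703% to 0.924% of all contacts in 5 genotypes and 1.44% in Dup-C. Contacts whose 2 ends fall in the same bin give a measure of how much of a bin's DNA a library recovered. In the window they stood at 2.11 times the WT level in Dup-C, relative to bins outside every gained segment, and at 1.02 to 1.17 times in the other mutants. A gain over Kcnj2 was thus seen in the library labelled Dup-C alone, as its genotype states. Where the window was gained, contacts of its copies cannot be told apart. With 1 library a genotype there is no test across embryos and no p-value. The 95% intervals below are exact (Clopper-Pearson) binomial intervals, which cover counting error only and treat amplified read pairs as independent.

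In WT the Kcnj2 window was in contact mostly with its own domain, and its contacts dropped at both domain ends. The domain took 48263 of the 64014 contacts, 75.4% (75.1 to 75.7), and 52.9% of all contacts lay on the centromeric side. Across the boundary bins, the 100 kb on the Kcnj side held 3907 contacts and the 100 kb on the Sox9 side 1036, a ratio of 3.77 (3.52 to 4.04). At the centromeric end of the domain, the 100 kb outside it held 775 contacts and the 100 kb inside 1514, a ratio of 0.512. The window's contacts with the Sox9-side stretch numbered 5936, or 9.27% of the total, and the strongest single bin there was 111420001 to 111430000, with 174.

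The Sox9-side stretch was the region whose share of the Kcnj2 window's contacts differed by the most percentage points between genotypes. The window made 5936 contacts with it in WT, 4735 in Dup-S, 7657 in Dup-L, 9311 in deltaBor, 12902 in Dup-LdeltaBor and 20500 in Dup-C. As a share of the window's contacts this was 9.27% (9.05 to 9.50) in WT and 9.87% (9.61 to 10.1) in Dup-S. The share was 11.9% (11.7 to 12.2) in Dup-L, 15.9% (15.6 to 16.2) in deltaBor, 20.5% (20.2 to 20.8) in Dup-LdeltaBor and 34.3% (33.9 to 34.7) in Dup-C. No 2 neighbours in this order had overlapping counting intervals, but the spread between embryos is not known. Raw shares contain the copy number of the target: same-bin contacts of the stretch stood at 1.24 times WT in Dup-S, 1.72 in Dup-L, 1.01 in deltaBor, 2.32 in Dup-LdeltaBor and 1.90 in Dup-C. After Knight-Ruiz (KR) balancing, which gives every bin the same total, the shares were 8.27% in WT, 8.15% in Dup-S, 8.60% in Dup-L, 14.7% in deltaBor, 13.3% in Dup-LdeltaBor and 28.0% in Dup-C. On that scale Dup-C was again the highest, deltaBor and Dup-LdeltaBor changed places, and Dup-S lay below WT.

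**Figure D1:**
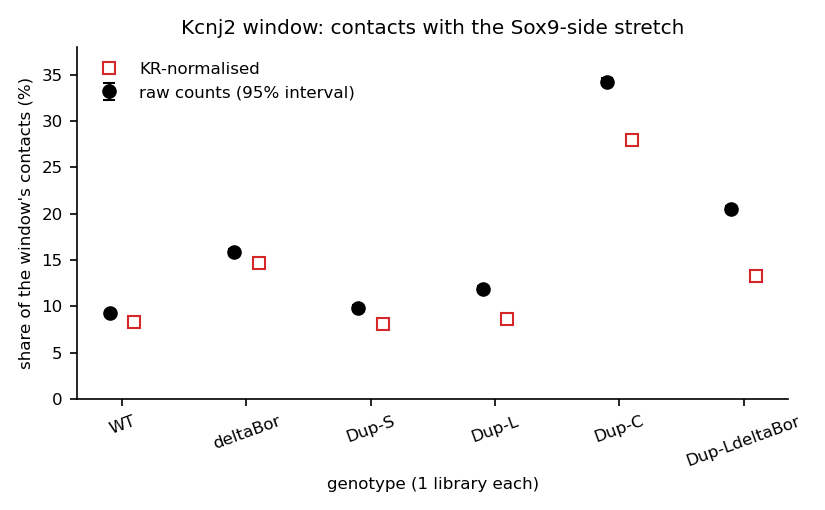
Share of the Kcnj2 window's contacts (%) made with the Sox9-side stretch in each genotype, 1 library each; filled circles are raw counts with exact 95% intervals, which are smaller than most symbols, and open squares are KR-normalised values. Dup-C stands at 34.3% raw and 28.0% KR-normalised, against 9.27% and 8.27% in WT.

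The shape of the whole profile differed between genotypes in blocks of 100 kb, of which the window has 59. A block was called when its share differed at least 1.5-fold between libraries and both held at least 50 contacts. The background beside each count is the share of blocks called by the same rule over all 195 windows of 3 bins in the map. Shares add up to 100%, so a gain in any region lowers the others. For that reason a scaled fold is also given, in which the window's contacts are set against contacts outside, and on the same side of, all altered segments. On that scale all contacts of the window together stood at 2.33 times WT (2.30 to 2.35) in Dup-C and at 1.07 to 1.13 times in the other mutants. All 5 comparisons with WT use the same WT library.

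**Figure D2:**
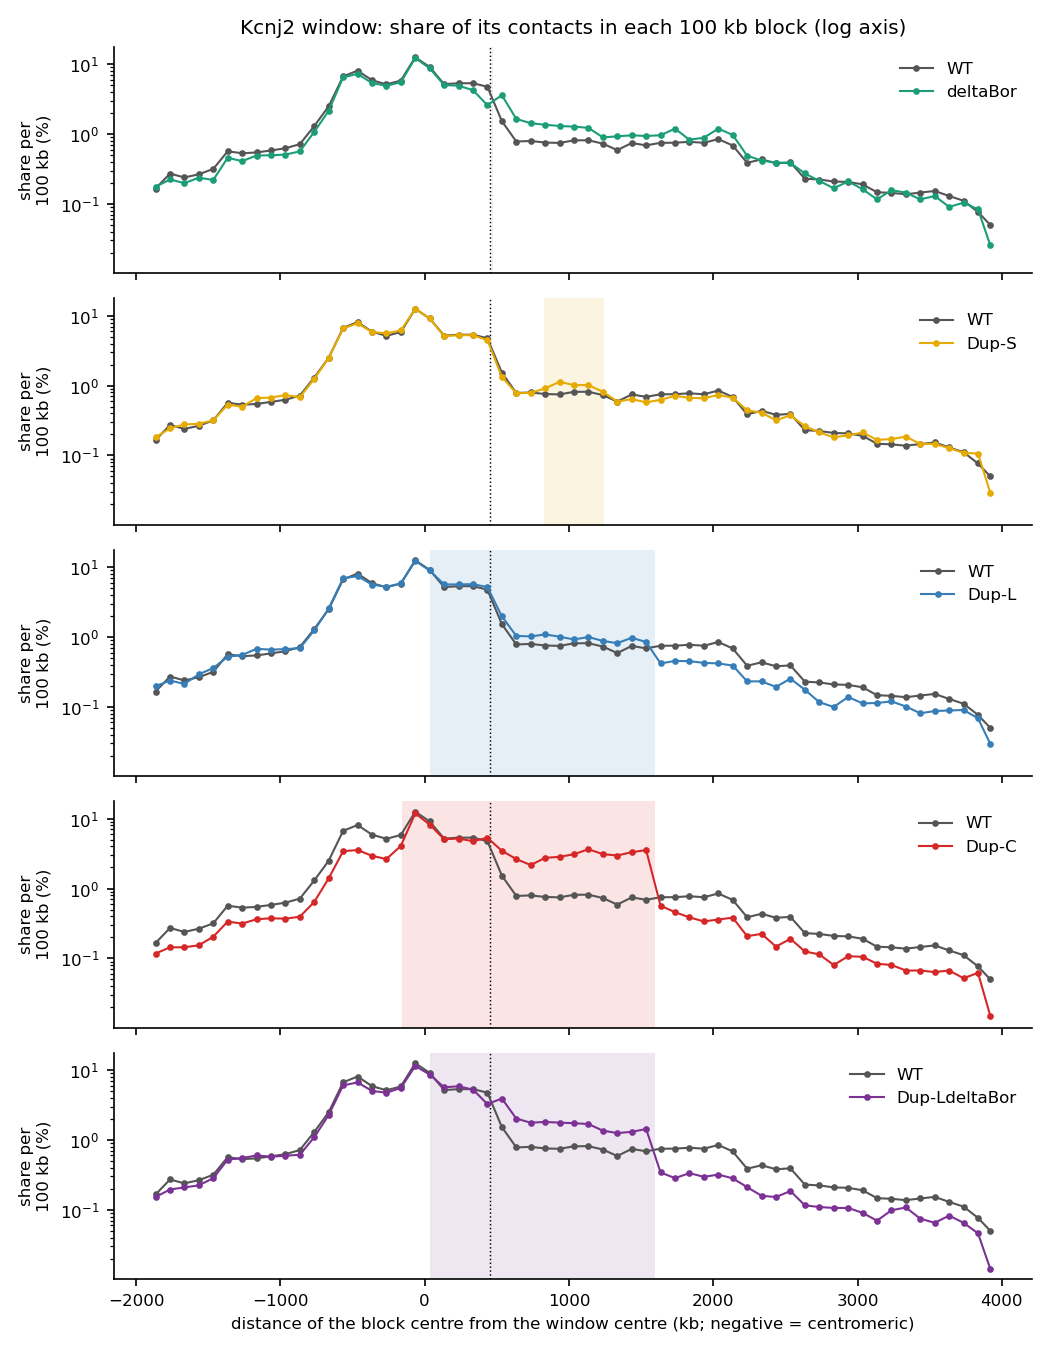
Share of the Kcnj2 window's contacts (%, log axis) in each 100 kb block against the distance of the block's centre from the window's (kb), with each mutant over WT in a panel of its own; shading marks the altered segment found on the map and the dotted line the boundary bins. Dup-C stays high up to the end of its segment, where 2044 contacts in the last 100 kb are followed by 241 in the next 100 kb.

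Deletion of the boundary addresses whether it limits contacts of Kcnj2 with the Sox9 domain. In deltaBor the window made 9311 contacts with the Sox9-side stretch against 5936 in WT, from a smaller total, a fold in share of 1.71 (1.66 to 1.77). The fold was 1.78 with KR-normalised values and 1.94 (1.88 to 2.01) on the scaled contacts. Single bins of the stretch had a higher share than in WT in 106 of 112 cases, with a median fold of 1.63. Over the whole map, 292 of 581 bins were higher and the median was 1.00. The difference was largest next to the lost boundary and smaller with distance. In the first 350 kb of the stretch the share was 7.51% against 3.65% in WT, a fold of 2.06 (1.95 to 2.16). In the next 420 kb, the part that Dup-S duplicates, it was 5.16% against 3.27%, a fold of 1.58 (1.49 to 1.67). In the last 350 kb it was 3.23% against 2.35%, a fold of 1.37 (1.28 to 1.47). The higher level reached past the stretch: the rest of the Sox9-side domain took 836 contacts against 638 in WT, a fold in share of 1.43 (1.29 to 1.59), and the chromatin beyond it had a fold of 1.13 (1.09 to 1.18).

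Of the 57 blocks tested in deltaBor, 9 were higher than in WT and 1 was lower, where the background was 4.3% higher and 1.6% lower. That is 15.8% and 1.75% of the window's blocks. On the scaled contacts the counts were 12 and 1, against 6.32% and 1.76%. The block with the largest fold was 111410001 to 111510000, just past the boundary, with 2115 contacts against 981 and a fold of 2.36 (2.18 to 2.54). It was followed by 111510001 to 111610000 at 2.11 and 111710001 to 111810000 at 1.80. The lower block, 111310001 to 111410000, contains the boundary bins, and its fold was 0.544 (0.511 to 0.579). The drop across the boundary was 1.32 (1.25 to 1.40), with 2595 contacts in the 100 kb before it and 1962 in the 100 kb after it. The bins of the stretch with the most contacts were 111420001 to 111430000, with 309, and 111500001 to 111510000, with 280. The Kcnj-side domain took 69.5% of the window's contacts, a fold in share of 0.921 (0.909 to 0.934), which turned above 1 on the scaled contacts, at 1.04. Within it, the 420 kb between the window and the boundary stood at 0.877 in share and 0.994 scaled.

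Dup-S, a duplication of 420 kb inside the Sox9 domain, leaves the boundary and the Kcnj2 window single. The window made 4735 contacts with the Sox9-side stretch, and the fold in share was 1.06 (1.02 to 1.11). It was 0.986 with KR-normalised values and 0.857 when divided by the same-bin signal of the stretch, so its direction was not settled. The gain lay in the duplicated part, with 4.36% of the window's contacts against 3.27% in WT, a fold of 1.33 (1.25 to 1.41). Same-bin contacts of that part stood at 1.54 times WT. Before the duplicated part the fold was 0.941 (0.883 to 1.00) and after it 0.887 (0.818 to 0.962); on the scaled contacts these were 1.06 and 1.00. Of 57 blocks, 1 was higher and 0 were lower, against a background of 2.31% and 0.0958%. On the scaled contacts the counts were 2 and 0, against 7.09% and 0.00958%. The higher block was 111810001 to 111910000, with 543 contacts against 478 and a fold of 1.52 (1.34 to 1.72; 1.18 with KR-normalised values). The drop across the boundary was 4.00 (3.68 to 4.36), against 3.77 in WT.

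Dup-L duplicates the boundary and the chromatin on both sides of it but starts 20 kb past the window. The window made 7657 contacts with the Sox9-side stretch, a fold in share of 1.28 (1.24 to 1.33). The fold was 1.04 with KR-normalised values, and dividing by the same-bin signal of the target, 1.72 times WT, turned it to 0.746. It was nearly even along the stretch, at 1.30, 1.26 and 1.29 in the parts before, inside and after the Dup-S segment, and 102 of 112 single bins were higher, as were 260 of 581 bins over the whole map. Contacts with the duplicated chromatin on the Kcnj side of the boundary, 26.4% of the window's total, had a fold of 1.06 (1.04 to 1.08), which turned to 0.803 with KR-normalised values. Same-bin contacts of that chromatin stood at 1.85 times WT. The drop across the boundary was 3.08 (2.90 to 3.28).

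Past the end of the duplication, the window in Dup-L made fewer contacts than in WT. The rest of the Sox9-side domain took 318 contacts against 638, a fold in share of 0.496 (0.432 to 0.569) and a scaled fold of 0.531. The chromatin beyond took 2781 against 4641, at 0.597 (0.569 to 0.626) in share and 0.639 scaled. These targets are single copy, with same-bin contacts in the rest of the domain near the WT level. At the end of the segment, 112520000, the last 100 kb inside held 549 contacts and the next 100 kb 246, a ratio of 2.23 (1.92 to 2.60; 1.46 with KR-normalised values), where WT had 0.899 (0.789 to 1.03). Of 57 blocks, 0 were higher and 15 lower, against a background of 7.3% and 10.3%. The lower blocks were 26.3% of the window's. On the scaled contacts the counts were 1 and 14, against 18.3% and 5.33%. The lowest folds were 0.476 at 113710001 to 113810000, 0.493 at 112910001 to 113010000 and 0.506 at 113310001 to 113410000.

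Dup-C differs from Dup-L by a further 190 kb on the centromeric side, which hold the Kcnj2 window. There the window made 20500 contacts with the Sox9-side stretch against 5936 in WT, although the library as a whole was the smallest. The fold in share was 3.70 (3.59 to 3.80), 3.38 with KR-normalised values and 8.60 (8.35 to 8.85) on the scaled contacts, which carry the gain of the window as well. Divided by the same-bin signal of the stretch, 1.90 times WT, the fold in share was 1.95. All 112 single bins of the stretch had a higher share than in WT, at 1.57- to 7.12-fold with a median of 3.98. Over the whole map, 161 of 580 bins were higher and the median was 0.635. Over Dup-L, the fold was 2.88 (2.80 to 2.95) in share, 3.25 with KR-normalised values and 6.26 (6.09 to 6.42) scaled. Again all 112 bins were higher in share, against 212 of 579 bins over the whole map.

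The fold in Dup-C increased with distance from the window along the stretch, the reverse of the order in deltaBor. The part before the Dup-S segment took 9.77% of the window's contacts, a fold of 2.68 (2.55 to 2.81). The part inside it took 13.3%, a fold of 4.07 (3.87 to 4.27). The part after it took 11.2%, a fold of 4.76 (4.50 to 5.04). The first 100 kb of the stretch held 2074 contacts and the last 100 kb 2044, a ratio of 0.986 (0.927 to 1.05), where the ratio was 0.279 to 0.423 in the other 5 genotypes. The fewest contacts in any 100 kb of the stretch were 1176, at 111590001 to 111690000, and the most were 2315, at 111980001 to 112080000. Dup-C was the one library of the 6 in which the near and the far end of the stretch were within counting error of each other.

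At the end of the segment the window's contacts in Dup-C dropped from 2044 in the last 100 kb inside to 241 in the next 100 kb, a ratio of 8.48 (7.42 to 9.73) and of 5.20 with KR-normalised values. If the copies lie head to tail, which the labels do not state, the last 100 kb of the stretch would be centred 205 kb from the window through the junction instead of 1545 kb. The 2044 contacts there were 67.9% of the 3012 that the window made with 111070001 to 111170000, the block at 205 kb on the other side within its own domain. In WT the same comparison gave 438 of 3284, or 13.3%. In Dup-C the window and both blocks are duplicated and contacts of all copies are counted together. The 2 counts are thus not like for like, and the orientation of the copies was not tested. The drop across the boundary bins was 1.60 (1.52 to 1.70) in Dup-C, with 3327 contacts before and 2074 after.

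**Figure D3:**
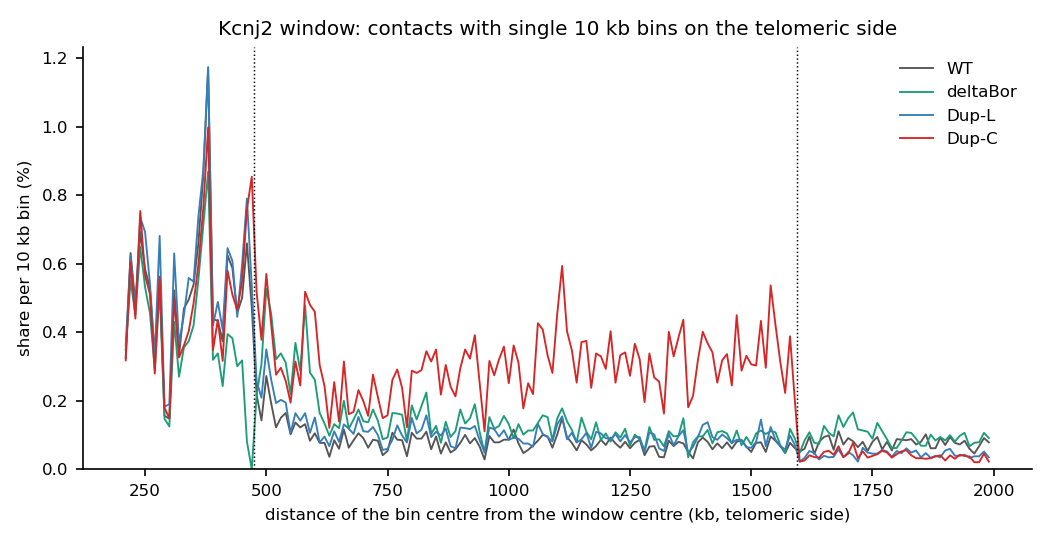
Share of the Kcnj2 window's contacts (%) with each 10 kb bin on the telomeric side, against distance from the window's centre (kb), in WT, deltaBor, Dup-L and Dup-C; dotted lines mark the ends of the Sox9-side stretch. Dup-C lies highest over most of the stretch, up to 0.593% in the bin 112030001 to 112040000, and drops at its end. Near the boundary deltaBor reaches the same level, with 3.61% against 3.47% in Dup-C over 111410001 to 111510000.

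Of the 50 blocks tested in Dup-C over WT, 11 were higher and 30 lower in share, against a background of 11% and 19.3% (the window's blocks gave 22% and 60%); on the scaled contacts 21 were higher and 0 lower, against 24.3% and 2.89%. The highest block was 112410001 to 112510000, at the far end of the segment, with 2123 contacts against 441 and a fold of 5.15 (4.65 to 5.72; 4.62 with KR-normalised values). It was followed by 112210001 to 112310000 at 5.04 and 112010001 to 112110000 at 4.48. The lowest were 113310001 to 113410000 at 0.386, 112910001 to 113010000 at 0.424 and 110410001 to 110510000 at 0.439. Over Dup-L, 11 of 50 blocks were higher and 16 lower in share, against a background of 3.34% and 3.06%. On the scaled contacts 33 were higher and 0 lower, against 5.51% and 1.63%. The scaled counts of Dup-C carry the gain of the window, whose scaled total was 2.33 times WT, against 1.07 in Dup-L. Most windows behind the background have no such gain between Dup-L and Dup-C, so the scaled excess cannot be read apart from it. The same 3 blocks led the gains over Dup-L, at 4.19, 3.64 and 3.65.

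Outside the Sox9-side stretch, the lower shares of Dup-C depended on the scale. Its domain's unduplicated part, 110200001 to 110770000, took 15.9% of the window's contacts against 32.1% in WT, a fold in share of 0.495 (0.483 to 0.507) that turned to 1.15 (1.12 to 1.18) on the scaled contacts. The rest of the Sox9-side domain stood at 0.559 in share and 1.30 (1.13 to 1.49) scaled, and the chromatin beyond at 0.496 and 1.15 (1.09 to 1.21). On the scaled contacts, the window's contacts with duplicated chromatin of its own domain stood at 2.19 and 2.17, close to its same-bin signal of 2.11, and those with each part of the Sox9-side stretch at 6.23, 9.46 and 11.1. Unduplicated chromatin on either side thus had scaled folds of 1.15 to 1.36 with a window whose own signal was 2.11 times WT. At the start of the segment, 110770001, the 100 kb outside held 1947 contacts and the 100 kb inside 4982, a ratio of 0.391 (0.371 to 0.412). That ratio was 0.717 to 0.765 in the other 5 libraries, in which this place is no breakpoint, and 0.669 in Dup-C with KR-normalised values.

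Dup-LdeltaBor joins the Dup-L duplication with the loss of the boundary, while the window stays single. The window made 12902 contacts with the Sox9-side stretch, a fold in share of 2.21 (2.14 to 2.28) over WT, with all 112 single bins higher, against 217 of 579 bins over the whole map. It was 1.61 with KR-normalised values and 2.45 scaled, and it turned to 0.950 when divided by the same-bin signal of the stretch, 2.32 times WT. Over Dup-L the fold was 1.72 (1.67 to 1.77), 1.55 with KR-normalised values and 1.27 after division by the same-bin signal. As in deltaBor, the fold over Dup-L was larger near the boundary: 1.84, 1.73 and 1.52 in the parts before, inside and after the Dup-S segment. Over deltaBor it was 1.29 (1.25 to 1.32), and below 1 both with KR-normalised values (0.907) and after division by the same-bin signal (0.562).

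Loss of the boundary could be compared in 2 backgrounds that share no library. For the Sox9-side stretch, the fold was 1.71 from WT to deltaBor and 1.72 from Dup-L to Dup-LdeltaBor, and the ratio of the 2 folds was 1.00 (0.961 to 1.05). These are raw shares, and the folds moved apart on other scales: they were 1.78 and 1.55 with KR-normalised values and 1.69 and 1.27 after division by the same-bin signal of the stretch. That signal was 2.32 times WT in Dup-LdeltaBor and 1.72 times in Dup-L. For the Kcnj-side domain the folds were 0.921 and 0.927, with a ratio of 1.01 (0.988 to 1.02). Past the end of the duplication they were not alike. In the rest of the Sox9-side domain the fold was 1.43 without and 0.712 (0.597 to 0.848) with the duplication, a ratio of 0.497 (0.407 to 0.608). The window had 836 contacts there in deltaBor and 222 in Dup-LdeltaBor, where WT had 638. Beyond the domain the folds were 1.13 and 0.758, with a ratio of 0.670 (0.624 to 0.718).

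Of 53 blocks in Dup-LdeltaBor over WT, 11 were higher and 16 lower, against a background of 14.8% and 24.9%. At 20.8% and 30.2% of the window's blocks, these counts in share were near the background. On the scaled contacts the counts were 11 and 15, against 34.1% and 11.2%, so that higher blocks fell below the background and lower ones exceeded it. The largest folds were 2.59 at 111510001 to 111610000, 2.56 at 111410001 to 111510000 and 2.40 at 111710001 to 111810000, and the lowest was 0.365 at 113210001 to 113310000. Over Dup-L, 10 were higher and 3 lower (background 2.75% and 4.79%; 10 and 2 on the scaled contacts, against 8.48% and 2.55%), led by 111410001 to 111510000 at 1.98 with 2474 contacts against 1275. Over deltaBor, 2 were higher and 16 lower (background 13% and 27.6%; 0 and 16 on the scaled contacts, against 29.6% and 12.9%), and the lowest was 112610001 to 112710000 at 0.237 with 179 contacts against 701. The drop at the end of the segment was 4.96 (4.21 to 5.85; 2.61 with KR-normalised values), from 882 contacts to 178. It lay between those of Dup-L and Dup-C, and the window was outside the duplication. The targets' own copy signal also steps at this edge. Same-bin contacts over WT went from 2.28 in the part after the Dup-S segment to 0.988 in the rest of the domain in Dup-LdeltaBor. They went from 1.68 to 1.01 in Dup-L and from 1.84 to 0.990 in Dup-C.

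The 3 bins of the window gave the same order of genotypes. The Sox9-side share of the first bin was 9.29% in WT, 9.73% in Dup-S, 11.9% in Dup-L, 14.6% in deltaBor, 18.9% in Dup-LdeltaBor and 35.6% in Dup-C. For the middle bin, which made the most contacts, the shares were 8.95%, 9.73%, 11.4%, 16.0%, 20.2% and 35.1% in that order. For the third bin they were 9.76%, 10.3%, 12.7%, 17.2%, 22.7% and 31.4%. The fold in Dup-C over WT was 3.83, 3.92 and 3.22 in the 3 bins, so the bin nearest to the boundary had the lowest. In deltaBor it was 1.57, 1.79 and 1.76, and in Dup-LdeltaBor 2.03, 2.26 and 2.32. The bins share a neighbourhood and a library and are not replicates of a genotype.

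The Kcnj2 window was set beside other 30 kb windows of its domain, 36 in all with itself, to show where its contacts stand. The 2 windows that straddle the start of the Dup-C or the Dup-L segment, of which the second adjoins Kcnj2, were left out. The stretch duplicated in Dup-C alone, 110770001 to 110960000, holds 5 of them, the Kcnj2 window included. In Dup-L, the other 4 windows of that stretch gave 11.1% to 11.7% of their contacts to the Sox9-side stretch, and the Kcnj2 window 11.9%. The 13 windows inside the Dup-L segment gave 27.1% to 36.1%, and the first of them, 110970001 to 111000000, 31.6%. In Dup-L the share thus changed from 11.9% to 31.6% between the Kcnj2 window and a window whose near edge lies 30 kb further on. In WT those 2 windows stood at 9.27% and 9.96%.

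In Dup-C, the other 4 windows of the same stretch stood at 31.2% to 33.0%, the Kcnj2 window at 34.3%, and the 18 windows outside the segment at 10.2% to 15.3%. The window at 110730001 to 110760000, just outside the start of the segment, stood at 10.2%. The 13 windows of the Dup-L segment had a median of 25.3% in Dup-C and reached 34.2%, at 111330001 to 111360000 next to the boundary. Among the 36 windows, Kcnj2 ranked 1 in Dup-C by Sox9-side share, level with that window within counting error, and 15 to 25 in the other genotypes. Among the 5 of its own stretch it ranked 1 by share in every genotype, WT included. The highest of the other 4 lay within the Kcnj2 window's counting interval in WT (9.06%), Dup-S (9.87%) and Dup-L (11.7%), so there the lead was not settled. By its fold over WT the Kcnj2 window ranked 3 of those 5 in Dup-C, 4 in Dup-L, 5 in Dup-S and 1 in deltaBor and Dup-LdeltaBor. These ranks are descriptions, since neighbouring windows share contacts and a library.

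**Figure D4:**
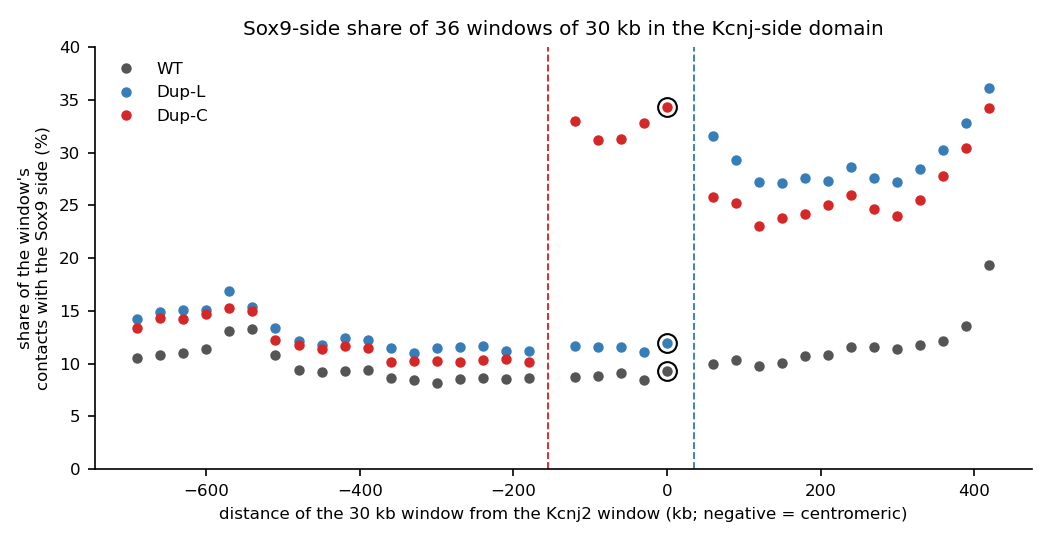
Share of contacts (%) made with the Sox9-side stretch by 36 windows of 30 kb of the Kcnj-side domain in WT, Dup-L and Dup-C, without the 2 that straddle a segment start, against the window's distance from the Kcnj2 window (kb); circled points are the Kcnj2 window, the red dashed line is the start of the Dup-C segment and the blue dashed line that of the Dup-L segment. Each duplication's windows step up at its own start, so that Kcnj2 stands with the high windows in Dup-C (34.3%) and with the low ones in Dup-L (11.9%).

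The strongest distal contact of the Kcnj2 window lay inside its own domain and was present in every genotype. Among bins at least 500 kb away, the bin 110390001 to 110400000, 520 kb to the centromeric side, had the most contacts in all 6 libraries. It held 914 contacts in WT, 649 in Dup-S, 943 in Dup-L, 793 in deltaBor, 778 in Dup-LdeltaBor and 405 in Dup-C. That was 3.93 (Dup-LdeltaBor) to 7.38 (deltaBor) times the library's mean at this distance, a mean that the altered contacts of the mutants also enter. Over the bins 50 to 100 kb to either side of it, it stood 2.71 to 2.94 times higher in all 6 libraries. Of the 914 contacts in WT, 250, 432 and 232 came from the first, the middle and the third bin of the window. The share fold over WT was 0.948 in deltaBor and Dup-S, 1.03 in Dup-L, 0.865 in Dup-LdeltaBor and 0.474 (0.421 to 0.534) in Dup-C. On the scaled contacts the fold was 0.960 to 1.10 in the 5 mutants, with 1.10 (0.979 to 1.24) in Dup-C. The scaled value of Dup-C carries the gain of the window, whose own same-bin signal was 2.11 times WT there. No gene or element is named at this bin, since no annotation on mm9 was used here.

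**Figure D5:**
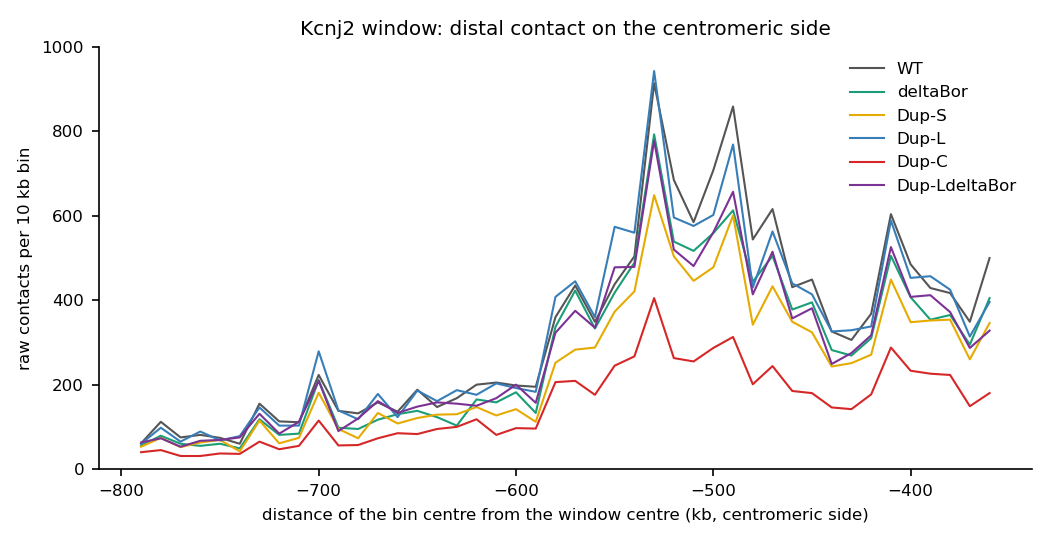
Raw contacts of the Kcnj2 window with 10 kb bins of the distal centromeric side, against distance from the window's centre (kb, negative is centromeric), in the 6 genotypes; bins nearer to the window are not drawn. Over the range drawn, all 6 lines are highest in the same bin, with 405 contacts in Dup-C to 943 in Dup-L; the lines are raw counts and differ in depth.

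In Dup-C, the next 4 distal bins by contacts lay in the Sox9-side stretch, where the 5 leading bins of the other genotypes were all in the Kcnj-side domain. The bin 112030001 to 112040000, 1100 kb from the window, held 355 contacts against 95 in WT and stood at 8.99 times the library's mean at its distance. The bin 112460001 to 112470000, 1530 kb away, held 321 against 61 and stood at 12.4 times the mean. That mean is taken over all pairs of the map at the reference distance, unduplicated ones included. The window and the stretch had same-bin contacts of 2.11 and 1.90 times WT in Dup-C, so both ratios also carry copy number at both ends. Nearer to the boundary, 111500001 to 111510000 held 310 against 84 and 111510001 to 111520000 held 287 against 53. The bin 111500001 to 111510000 was also among the 3 leading bins of the stretch in deltaBor, with 280 contacts, and in Dup-LdeltaBor, with 284.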

How the data were processed

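Capture Hi-C maps of 6 mouse limb bud libraries were used. Per the submitters' processing notes, the aligner was Bowtie2 2.2.6 and the build mm9. File names give 30 as the mapping quality and 10 kb as the bin size. The authors deposited raw contact counts per bin pair, and a signal map after KR balancing, for each library. How pairs were filtered and duplicates treated is, in the sources used here, not given. The 7 comparison maps were not used. Dup-C and Dup-S positions are offsets and were placed on the bins of the other maps.

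Raw counts were the main values, without contacts under 2 bins apart. Altered segments were runs of bins whose log2 contact sums over WT differed most from the rest (pseudocount 0.5). Domains ended at WT insulation minima (500 kb diamond, prominence 0.3 log2). Shares carry Clopper-Pearson 95% intervals, and folds an exact interval conditional on both counts. They leave out the error of the scale.

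Named were the regions set by these edges, the 3 blocks of 100 kb with the largest gain and loss per comparison among those with at least 50 contacts, and the 5 leading bins at least 50 bins away. The window, lists and tests were chosen with earlier results of these data known. Promoter motifs were searched in the RefSeq table. Scripts used Python 3.11.15, numpy 2.4.6, scipy 1.17.1, pandas 2.3.3 and matplotlib 3.10.9, and were tested on simulated data. The alternatives were KR values, other windows, separations, bins, targets and scales.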

Additional observations from a re-analysis of the deposited data

Results flagged for a closer look

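Loss of the boundary had folds on opposite sides of 1 in the backgrounds without and with the Dup-L duplication, for the Kcnj2 window's contacts past the end of that duplication. In the rest of the Sox9-side domain the fold in share was 1.43 from WT to deltaBor and 0.712 from Dup-L to Dup-LdeltaBor (1.45 and 0.793 with KR-normalised values). Beyond the Sox9-side domain it was 1.13 and 0.758 (1.15 and 0.853 with KR-normalised values). With 1 library a genotype, the difference was not tested across embryos. The part that copy number plays in it was not tested. Dup-LdeltaBor also had more same-bin contacts in the Sox9-side stretch than Dup-L, at 2.32 against 1.72 times WT.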

How the results depend on the processing

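The fold of the Sox9-side share was recomputed under 8 alternatives for each of 8 comparisons, 64 values in all: 34 stayed within the counting interval of the reported value, 24 moved outside it in the same direction and 6 reversed. Contacts at least 10 bins away, a window wider by 1 bin on each side and leaving out 13 bins of low coverage moved none of them outside it. KR-normalised values gave, over WT, 3.38 in Dup-C, 1.78 in deltaBor, 1.04 in Dup-L and 1.61 in Dup-LdeltaBor, 3.25 in Dup-C over Dup-L and 1.55 in Dup-LdeltaBor over Dup-L. They reversed Dup-S over WT (0.986) and Dup-LdeltaBor over deltaBor (0.907). Division by the same-bin signal of the target reversed Dup-S (0.857), Dup-L (0.746) and Dup-LdeltaBor (0.950) over WT and Dup-LdeltaBor over deltaBor (0.562). It gave 1.95 for Dup-C over WT, 2.61 for Dup-C over Dup-L and 1.27 for Dup-LdeltaBor over Dup-L. Scaling on contacts outside the altered segments gave, over WT, 8.60 in Dup-C, 1.94 in deltaBor, 1.37 in Dup-L, 1.20 in Dup-S and 2.45 in Dup-LdeltaBor, 6.26 in Dup-C over Dup-L and 1.78 in Dup-LdeltaBor over Dup-L. The middle bin alone gave 1.79 in deltaBor and 3.92 in Dup-C over WT, 3.07 in Dup-C over Dup-L and 1.77 in Dup-LdeltaBor over Dup-L. The whole Sox9-side domain as target gave, over WT, 3.39 in Dup-C, 1.21 in Dup-L and 2.03 in Dup-LdeltaBor, and 1.20 in Dup-LdeltaBor over deltaBor. Division by the same-bin signal takes out the target's copy signal by construction, while KR balancing gives every bin the same total. Why the values moved was not tested beyond that.

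At a fold of 2 in place of 1.5, blocks higher and lower numbered, over WT, 11 and 8 in Dup-C (11 and 30 as reported), 2 and 0 in deltaBor (9 and 1), 0 and 2 in Dup-L (0 and 15) and 0 and 0 in Dup-S (1 and 0). In Dup-LdeltaBor they numbered 9 and 11 over WT (11 and 16), 0 and 0 over Dup-L (10 and 3) and 0 and 11 over deltaBor (2 and 16), and in Dup-C over Dup-L 10 and 2 (11 and 16). The background over all windows was computed at a fold of 1.5 only. Whether the counts at a fold of 2 differ from those of other windows is therefore not known. Blocks on the scaled contacts, a choice made after seeing the data, numbered 21 and 0 in Dup-C over WT, 33 and 0 in Dup-C over Dup-L, 2 and 0 in Dup-S, 1 and 14 in Dup-L and 0 and 16 in Dup-LdeltaBor over deltaBor. Their backgrounds are given with the comparisons above, and the counts of Dup-C carry the gain of the window. No paired analysis was possible because each genotype has 1 library and the labels carry no replicate numbers. Depth limits single bins: far from the window many hold under 50 contacts, and Dup-C has the fewest blocks that could be tested (50 of 59).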
